A study of Homo sapiens with 12 samples.

Results

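The m6A peaks of control K1 cells, transfected with the non-targeting siRNA si-NC, are described here on their own. The members are all peaks of the 3 si-NC lists, 25886 of the 50501 peaks listed in the series, with 8429, 8458 and 8999 peaks in si-NC replicates 1, 2 and 3. K1 is a human cell line from a papillary thyroid carcinoma. The si-NC group had 3 m6A IP libraries and 3 matching input libraries of 12 libraries in all, and the other 6 came from cells with an siRNA against FTO, which were not used here. MeRIP-seq pulls down fragmented RNA with an m6A antibody, and a peak marks where the IP has an excess of reads over its input. All si-NC cells were transfected with Lipofectamine 3000, and the labels do not state whether separate cultures were used. The spread between lists given below may therefore be technical.

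m6A is the methylation of adenosine at its N6 position and the commonest internal modification of mRNA. It is deposited in the nucleus by a writer complex built around METTL3 and METTL14, removed by the demethylases FTO and ALKBH5, and read by proteins such as those with a YTH domain. It is known to gather near stop codons and in long internal exons, and to affect the splicing, export, translation and decay of the transcripts that carry it.

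The fold enrichment, the score and the FDR of a peak are values of that peak within its own list. Fold enrichment is IP over input, and its median was 7.15, 7.13 and 7.01 in si-NC replicates 1, 2 and 3. Genes are therefore ranked by percentile, the share of peaks in a list with a fold at or below that of the peak, and a gene with several peaks takes its highest. No peak had an FDR under 5%, since the lowest FDR was 24.2%, 40% and 18.2% and the median 50.4%, 99.6% and 47.5% in replicates 1, 2 and 3. No read counts were at hand, which leaves the depth under each peak unknown. Peaks do not report how much of an mRNA the cells hold, and a gene with no peak may still be expressed.

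Most genes with an m6A peak had one in every control library. A peak was listed in 5639, 5628 and 5954 genes in si-NC replicates 1, 2 and 3. Of the 6883 genes with a peak in any list, 4670 had one in all 3 lists, which is 67.8% of them, while 998 had one in 2 lists and 1215 in 1 list. Replicate 3 held 553 genes found in no other list, against 370 in replicate 2 and 292 in replicate 1.

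Genes found in fewer lists also ranked lower and had fewer peaks. The median percentile, taken as the mean over the lists that held the gene, was 63.1 for genes in 3 lists, 32.4 for genes in 2 lists and 23 for genes in 1 list. With the comparison kept to genes that never had more than 1 peak in a list, the medians were 55.5, 31.6 and 22.5 for 3, 2 and 1 lists. The number of peaks per gene averaged 1.60, 1.10 and 1.04 in the same order.

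A few high peaks nonetheless missed a list, and these genes were picked after their values were seen. UROS, an enzyme of heme synthesis, had fold enrichments of 74.8 and 80.1 in replicates 1 and 2, at percentiles of 99.8 and 99.8, and no peak in replicate 3. VAV3, an exchange factor for small GTPases, had a fold of 455 in replicate 3 and no peak in replicates 1 and 2. DPP9, a dipeptidyl peptidase, had 34.3 and 45.5 in replicates 2 and 3 and no peak in replicate 1. At none of these 3 sites did the list without the gene hold a peak under another name. Of the genes found in 1 list, 10 had a percentile above 90 there, and of those in 2 lists 18 had a mean percentile above 90, against 682 of the genes in all 3.

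The highest enrichments belonged to genes that encode humanin-like peptides, which are nuclear copies of a piece of the mitochondrial 16S rRNA gene. MTRNR2L12 had a fold enrichment of 8846, 8879 and 9405 in si-NC replicates 1, 2 and 3, the highest of each list, over chr3:96335981-96337000 (hg19). MTRNR2L9 followed with 2908, 2749 and 3074, then MTRNR2L2 with 1809, 2419 and 2225 and MTRNR2L1 with 1415, 1182 and 1272. Of 12 MTRNR2L genes that had a peak, 11 were found in every list, and 7 of these are among the 20 genes that ranked highest in all 3 lists. These copies are nearly identical to the mitochondrial rRNA and to each other, so reads cannot be assigned to one of them with confidence and the values are uncertain. The remaining member, MTRNR2L8, was listed in replicate 3 alone, with a fold of 1105.

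The POTE genes, whose members POTEE, POTEF, POTEI and POTEJ carry an actin-like part, raise the same doubt. POTEE had folds of 143, 132 and 194 in replicates 1, 2 and 3, POTEJ 129, 117 and 174, and POTEI 127, 103 and 146. The 5 POTE genes that had a peak were found in every list. The cytoplasmic actin genes ACTB and ACTG1, which share sequence with them, had no peak in any si-NC list.

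Among the other genes of the top 20, several encode proteins that bind or process RNA. HNRNPM, a regulator of alternative splicing, had folds of 182, 219 and 215 in replicates 1, 2 and 3. This peak covered chr19:8509712-8509995 (hg19), 284 bp with the same ends in all 3 lists. EIF5B, a GTPase that joins the ribosomal subunits at the start of translation, had 121, 77.5 and 119 at its highest peak, chr2:99980108-99980325. UPF2, a core factor of nonsense-mediated decay, had 122, 95.7 and 83.3, and the stretch common to its peaks was chr10:12077058-12077617. Each of EIF5B and UPF2 had 4 peaks in every list, and a further peak of each also stood above the 99th percentile. In EIF5B that was chr2:99953834-99954052, with folds of 62.5, 71.3 and 52.7, and in UPF2 chr10:12084913-12085169, with 56.0, 48.4 and 48.1.

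The splicing factors RBM25 and LUC7L3 were also in this group. RBM25 had folds of 68.6, 68.4 and 65.9 at chr14:73572567-73572789. LUC7L3 had 86.2, 66.8 and 84.2 at chr17:48823081-48823364. PRRC2C, an RNA-binding protein of stress granules, had 79.6, 72.0 and 72.7 at its highest peak and 6, 5 and 6 peaks in replicates 1, 2 and 3.

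The remaining genes of the top 20 have other roles. HMGN5, a nucleosome-binding protein encoded on the X chromosome, had folds of 161, 110 and 167. GNPTAB, which encodes subunits of the enzyme that tags lysosomal hydrolases with phosphomannose, had 87.2, 67.3 and 96.1. The endoplasmic reticulum protein gene TMEM259 had 68.2, 90.9 and 69.1, and INCENP, the scaffold of the chromosomal passenger complex, had 65.4, 75.1 and 63.4. Across these genes the order changed between lists, so neighbours in the ranking are not separated by the spread over lists.

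**Figure D1:**
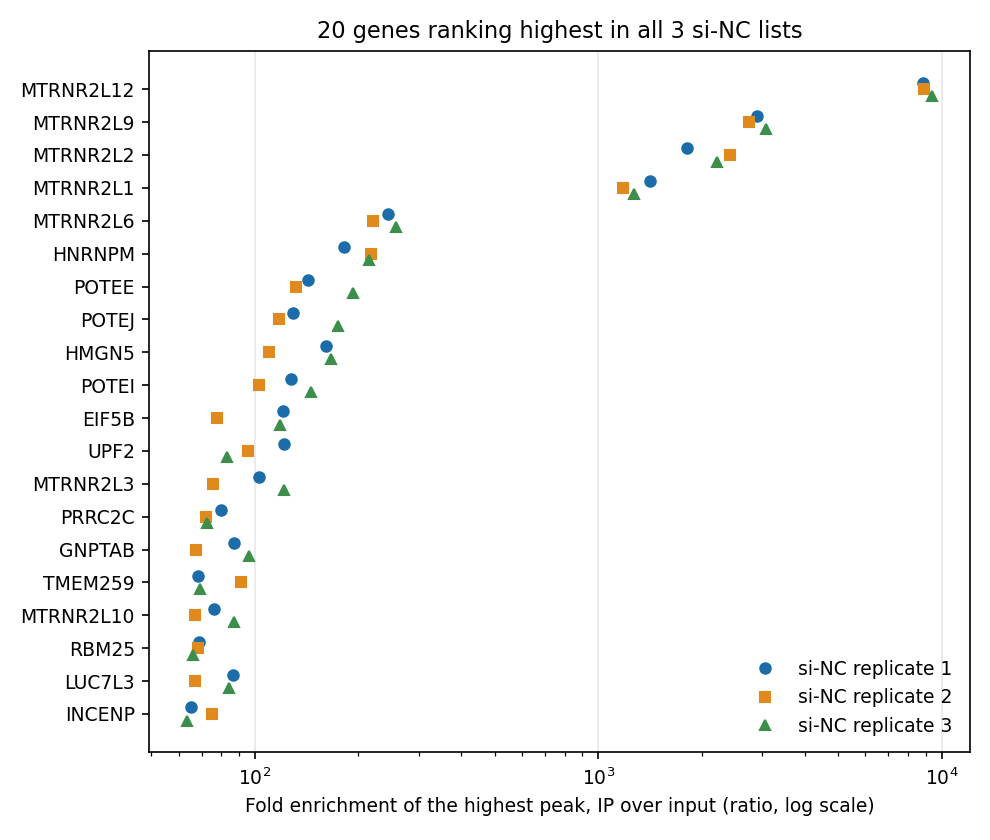
Fold enrichment (IP over input, log axis) of the highest peak of the 20 genes that ranked highest in all 3 si-NC lists, with 1 point for each of si-NC replicates 1, 2 and 3. MTRNR2L12 lies at 8846 to 9405 and INCENP, at the bottom, at 63.4 to 75.1, and the 3 points of a gene lie close together on this scale.

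Without the MTRNR2L and POTE genes, a ranking made after their values were seen, the next genes were of similar kinds. NUFIP2, which binds FMRP, had folds of 66.7, 80.6 and 60.5, and SAFB2, a nuclear matrix protein, 57.0, 70.6 and 55.0. CHAF1A, the large subunit of the histone chaperone CAF-1, had 62.2, 55.9 and 76.0, and GATAD2A, a subunit of the NuRD complex, 54.7, 69.7 and 81.2. SUPT5H, an elongation factor of RNA polymerase II, had 51.6, 65.1 and 63.9, and the spliceosome gene PRPF38B 66.8, 53.4 and 52.9. All of these were above the 99th percentile in every list. CHAF1A, GATAD2A, SAFB2, SUPT5H, TMEM259 and HNRNPM are all on chromosome 19, which as a whole did not rank high, as described with the other chromosomes.

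In all, 531 genes were above the 90th percentile in each of the 3 lists, 11.4% of the genes found in all 3, and 1066 were above it in at least 1 list. These strongly enriched genes moved little between lists, with a median range of 1.72 percentile points over the 3 lists. For all 4670 genes the median range was 13.7 points. It was under 10 points for 1794 genes (38.4%) and over 50 points for 189 genes (4.05%). At the low end, 260 genes were under the 25th percentile in every list. Percentiles above 90 leave little room for a wide range, so the narrow spread of the top genes is in part fixed by how they were chosen.

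Ranks agreed between the lists over the whole scale. Across the 4670 genes in all 3 lists, Spearman's rho of the percentiles was 0.83 between replicates 1 and 2, 0.85 between replicates 1 and 3, and 0.81 between replicates 2 and 3. The median difference between lists was 7.60, 6.80 and 8.19 percentile points for the same pairs. These correlations are across genes, which are not replicates, and the libraries share a cell line and a method. The genes farthest from agreement, named after their values were seen, include FAM50A, at percentiles of 95.2, 94.2 and 16.4, and DNM2, which encodes dynamin, at 5.80, 92.2 and 64.1 in replicates 1, 2 and 3.

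**Figure D2:**
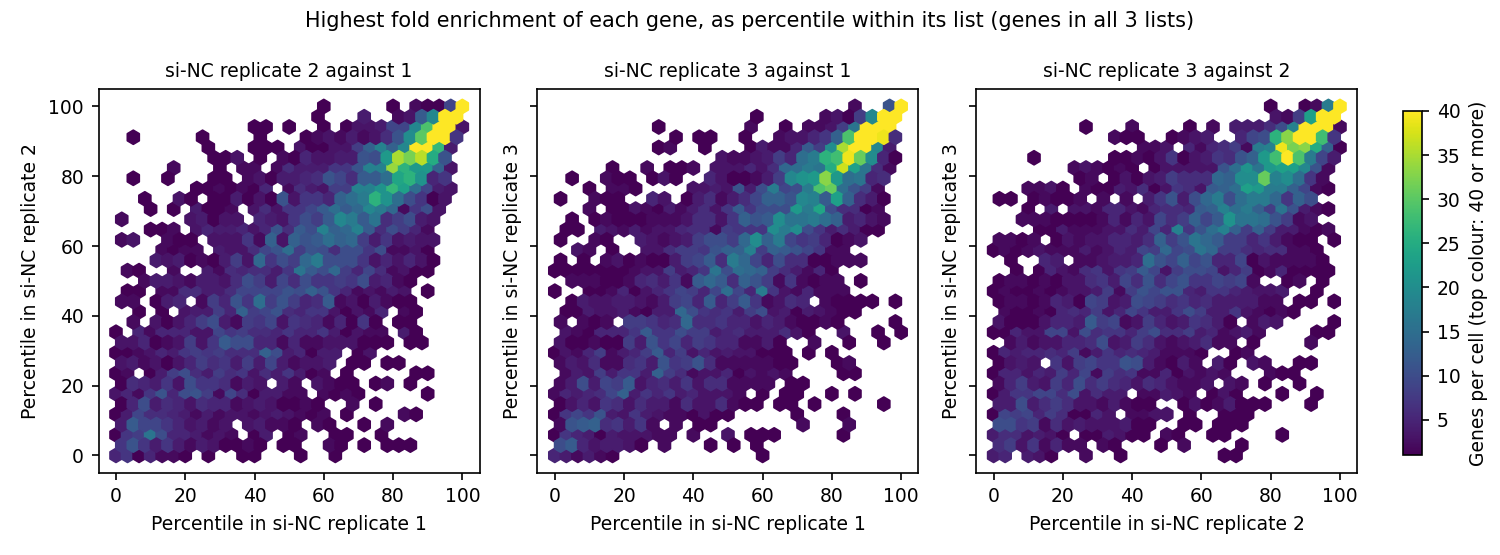
Within-list percentile of the highest fold enrichment of each of the 4670 genes found in all 3 si-NC lists, with 1 list on each axis and the number of genes in each cell shown by colour. The genes lie along the diagonal, with rho of 0.83, 0.85 and 0.81 from left to right, and they are tightest in the upper corner.

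The highest peak of a gene was usually at the same place in each control library. In 3808 of the 4670 genes (81.5%) the highest peaks of the 3 lists overlapped by at least 1 bp. The share was 97.7% of 2333 genes with exactly 1 peak in each list, and 65.9% of 1309 genes with 2 or more peaks in each list, where another peak could come first. Among the 531 genes above the 90th percentile in all 3 lists it was 90.8%.

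The transcripts of the m6A machinery were themselves among those with m6A peaks. Of 20 writers, erasers and readers, 14 had a peak in at least 1 si-NC list and 11 of these (6 writers, 1 eraser and 4 readers) had one in all 3, beside 67.8% of all genes with a peak. The best percentile of these genes ran from 20.4, for ALKBH5 in its single list, to 99.7, for ZC3H13.

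Within the writer complex, the scaffold subunits carried the strongest peaks. ZC3H13, which anchors the complex in the nucleus, had 6 peaks in every list, and the highest, chr13:46549418-46549973, had folds of 68.0, 61.0 and 71.3 in replicates 1, 2 and 3. KIAA1429, now named VIRMA, which directs methylation toward the ends of transcripts, had 3 peaks in every list and folds of 53.1, 57.2 and 46.8 at the highest. Both were above the 99th percentile in all 3 lists.

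The other writer subunits ranked below these. CBLL1 had folds of 9.81, 9.31 and 10.04, at percentiles of 73.0, 70.1 and 76.5. RBM15, which helps to bring the complex to its targets, had 7.49, 8.43 and 9.33 over 3368 bp at chr1:110881945-110885312. METTL14, the partner of the catalytic subunit, had a peak of 231 bp at chr4:119606525-119606755 in all 3 lists, with folds of 6.19, 11.6 and 6.24. Its percentile was thus 37.1, 81.8 and 39.5, so that replicate 2 stood apart. WTAP, the adaptor that holds the catalytic pair in place, had 2 peaks in every list, with folds of 6.13, 5.86 and 5.92 at the higher one. RBM15B had a peak of 6638 bp in replicates 1 and 3, with folds of 13.8 and 14.0 at percentiles of 88.1 and 89.8, and none in replicate 2. METTL3, the catalytic subunit, had no peak in any si-NC list.

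Both erasers had a peak in these cells. FTO had a peak of 628 bp at chr16:53859776-53860403 with folds of 5.82, 7.19 and 7.23 in replicates 1, 2 and 3. A further FTO peak, chr16:53737875-53738141, was listed in replicate 3 alone, with a fold of 10.6, which makes the best percentile of the gene 32.3, 50.5 and 78.9. ALKBH5 had a peak in replicate 2 only, with a fold of 5.04 at a percentile of 20.4.

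Among the readers, the nuclear YTHDC1 stood highest. It had 4 peaks in every list, and the highest had folds of 27.7, 23.7 and 28.1, at percentiles of 98.0, 97.0 and 98.3. That peak was at chr4:69202745-69203168 in replicates 1 and 3 and at chr4:69215444-69215824 in replicate 2, and each interval was listed in all 3. The cytoplasmic readers were alike in rank. YTHDF2, which promotes decay of methylated mRNA, had folds of 9.97, 9.23 and 10.9 over 1584 bp at chr1:29068915-29070498. YTHDF1 had 8.93, 9.60 and 8.61 over 1521 bp at chr20:61833639-61835159, and YTHDF3 9.04, 8.29 and 8.67 over 1598 bp. Each of these intervals had the same ends in all 3 lists, and the folds of the 3 genes overlap between lists, so that their order is not resolved. IGF2BP2 was listed in replicate 1 alone, with a fold of 7.49, and HNRNPA2B1, HNRNPC, IGF2BP1, IGF2BP3 and YTHDC2 had no peak.

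Of 11 further enzymes of RNA methylation outside this set, 6 had a peak and 4 of these (66.7%) had one in all 3 lists, beside 67.8% of all genes. TRMT6, a subunit of a tRNA methyltransferase, had folds of 16.5, 10.19 and 12.9, at percentiles of 92.5, 75.4 and 87.2. METTL16, which methylates the transcript of a SAM synthetase, had 4.82, 4.07 and 5.18, at percentiles of 16.7, 7.43 and 23.1.

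About 2 in 3 genes with a peak had a single one. The mean number of peaks per gene was 1.495, 1.503 and 1.511 in si-NC replicates 1, 2 and 3, or 1.503 ± 0.0083 (SD, n = 3 lists). A single peak was listed in 67.7%, 67.0% and 66.8% of the genes of each list, 2 peaks in 21.7%, 22.2% and 22.3%, and 3 or more in 10.6%, 10.8% and 10.9%. Those genes with 3 or more held 25.7%, 25.8% and 26.3% of all peaks. The number of peaks was the same in all 3 lists for 3127 of the 4670 genes found in all 3 (67.0%).

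**Figure D3:**
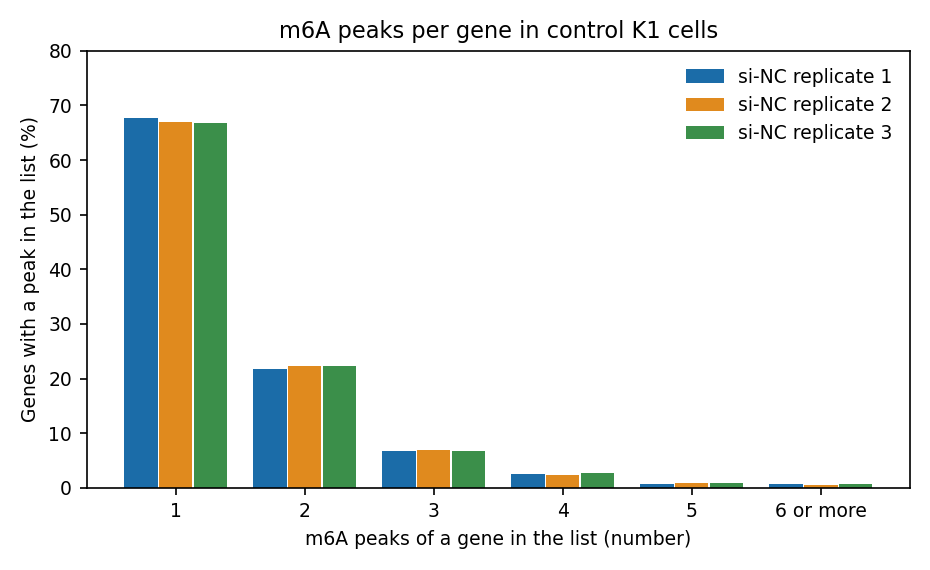
Percent of the genes with a peak in each si-NC list that had 1, 2, 3, 4, 5 or at least 6 peaks, with 1 bar for each of si-NC replicates 1, 2 and 3. Single-peak genes make up 67.7%, 67.0% and 66.8% of the 3 lists, and the bars of the lists nearly coincide in every class.

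Most of the genes with the most peaks encode very large proteins. PCNT, the pericentriolar scaffold pericentrin, had 12 peaks in every list, spread over 115 kb of chromosome 21. Its peaks were short, with a median length of 232, 230.0 and 230.0 bp in replicates 1, 2 and 3. Their percentiles ran from 0.77 to 96.4 in replicate 1, so peaks of low and of high rank were listed for 1 gene. The highest peak of PCNT was not at the same place in the 3 lists. DST, a linker between cytoskeletal filaments, had 11 peaks in every list over 167 kb, and TNRC18 had 10 in every list over 78.1 kb. TNRC18 and PCNT each had 10 stretches covered in all 3 lists.

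Other genes of this group varied more between lists. SPTBN1, which encodes a spectrin, had 11, 8 and 10 peaks in replicates 1, 2 and 3. BPTF, a subunit of the NURF remodeller, had 9, 8 and 9, and the histone methyltransferase gene KMT2C 8 in each list. EP400, another remodeller gene, had 8, 7 and 7, and GOLGA3 and MYH10 had 7 in each list.

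Many peaks did not mean a high fold. The best percentile of EP400 was 60.6, 73.9 and 72.1 in the 3 lists. MYH10, a nonmuscle myosin, reached 97.4, 96.9 and 94.6. Over genes with the same number of peaks in each list, the median of the best percentile was 55.5 for 1 peak, 74.9 for 2, 84.8 for 3 and 90.2 for 4, and 92.0 for 5 or more. This rise follows in part from taking the highest of more peaks. The median percentile over all peaks of the same genes was 57.1, 56.9 and 58.6 for 1 peak in replicates 1, 2 and 3, and 50.8, 55.6 and 53.9 for 5 or more.

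Peak length was alike in the 3 lists and spanned a wide range. The median was 694, 676 and 667 bp in si-NC replicates 1, 2 and 3, or 679 ± 13.7 bp (SD, n = 3 lists), with a shortest peak of 200 bp in each list and a longest of 12195, 12194 and 12238 bp. Peaks under 300 bp made up 20.2%, 20.3% and 20.9% of the lists. Peaks of 3000 bp or more made up 6.03%, 5.55% and 5.38%, but 23.3%, 22.2% and 21.8% of all bases listed.

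Long peaks ranked somewhat higher than short ones. The median percentile was 62.4, 63.9 and 66.1 for peaks of 3000 bp or more in replicates 1, 2 and 3, against 48.1, 48.4 and 44.7 for peaks under 300 bp. The top of the lists was not made of long peaks, since 10.4%, 9.59% and 12.2% of the longest class stood above the 90th percentile, against 11.5%, 11.6% and 11.4% of the shortest. Across all peaks of a list, Spearman's rho of fold with length was 0.051, 0.048 and 0.10.

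**Figure D4:**
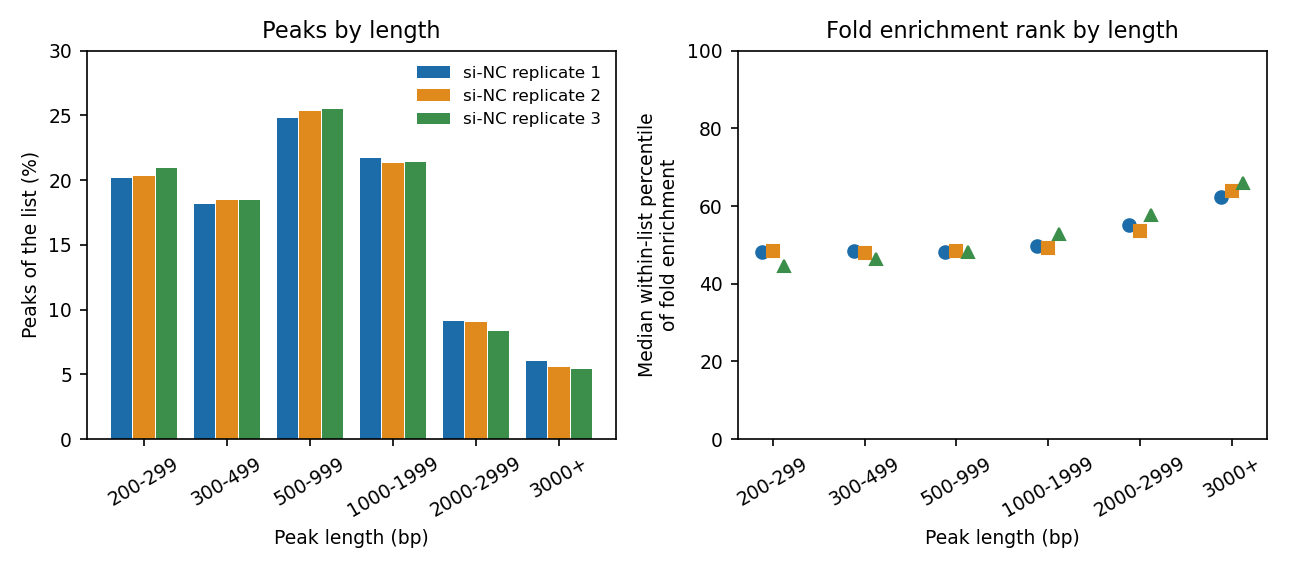
Left, percent of peaks in each length class (bp) for si-NC replicates 1, 2 and 3, and right, the median within-list percentile of fold enrichment in the same classes. Peaks of at least 500 and under 1000 bp are the commonest class, at 24.8%, 25.3% and 25.5%, and the median percentile is highest, at 62.4, 63.9 and 66.1, for peaks of 3000 bp or more.

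Peaks with more peaks beside them in the gene were shorter. Genes with exactly 1 peak in each list had a median length of 971, 956 and 950.0 bp, and genes with 5 or more had 390.0, 390.0 and 388 bp in replicates 1, 2 and 3. Peak lengths were not compared with exon lengths, which were not at hand.

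The positions shared by the 3 control lists formed 6425 stretches covered by a peak in each. They held 7093088 bp, or 62.5% of the 11353003 bp covered by any list, with a median length of 724 bp, and lay in 4543 genes when the 3 lists named the same gene. In 4369 of them (68.0%) all 3 lists gave the same start and end. These are ends of listed intervals, which do not place the methylated adenosines within them. Exon ends were not at hand, and whether the intervals follow them was not tested. Of the genes found in all 3 lists, 127 had no stretch in common, so their peaks lay at different places. A further 1266 genes had 2 or more stretches and 43 had 5 or more.

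The peaks that held such a stretch were the stronger and longer ones. They made up 75.8%, 75.6% and 71.2% of the peaks of replicates 1, 2 and 3. Their median percentile was 57.9, 58.2 and 59.8, against 26.3, 26.9 and 29.1 for the other peaks, and their median length 760.0, 764 and 756 bp, against 519, 492 and 499 bp. A stretch needs only 1 bp, which a longer peak meets more easily, so the difference in length is in part fixed by the definition. Above the 90th percentile in all 3 lists stood 561 stretches in 512 genes.

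The longest common stretches ran over several kilobases of 1 gene. The first was 12194 bp in ZNF469, a zinc finger gene, at chr16:88493879-88506072, with folds of 13.0, 14.7 and 17.6 in replicates 1, 2 and 3. HIPK2, a kinase that phosphorylates p53, followed with 11828 bp at chr7:139246316-139258143 and folds of 14.8, 16.2 and 13.8. SH3PXD2A, an adaptor of invadopodia, had 9763 bp at chr10:105353784-105363546 with folds of 6.87, 7.28 and 7.17. HRNR, which encodes the epidermal protein hornerin, had 9181 bp on chromosome 1 with folds of 4.34, 7.70 and 4.63, and ANKRD33B had 8522 bp on chromosome 5 with folds of 14.1, 13.2 and 10.6. HRNR is built of repeats within its own gene and reads there may not be placed with confidence.

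Zinc finger genes stood out for the length of their peaks and not for their rank. Of 517 genes named ZNF with a number, 317 had a peak and 238 of these (75.1%) had one in all 3 lists, beside 67.8% of all genes with a peak. Their median peak length was 1815, 1798 and 1744 bp in replicates 1, 2 and 3, against 694, 676 and 667 bp over all peaks, a difference far larger than the spread between lists. Exon lengths were not at hand, and whether peak length follows them was not tested. The median of their mean percentiles was 49.7, against 63.1 for all genes in all 3 lists, and 11 of the 238 (4.62%) were above the 90th percentile in every list, against 11.4%. The highest was ZNF326, an RNA-binding protein gene despite its name, with folds of 37.0, 26.0 and 31.8, followed by ZNF653 with 20.8, 20.7 and 23.4, ZNF827 with 21.3, 18.96 and 20.1, and ZNF622 with 22.6, 21.2 and 17.2. ZNF genes are related in sequence, and reads that fit several of them could be split by the mapping.

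Subunits of chromatin remodellers had the highest median percentile of the 13 gene lists with at least 10 members that had a peak. Of 25 subunits of chromatin remodellers, 22 had a peak and 21 of these (95.5%) had one in all 3 lists, beside 67.8% over all genes. The median of their mean percentiles was 89.7, against 63.1 for all genes in all 3 lists, and 10 of the 21 (47.6%) were above the 90th percentile in each list, against 11.4%. They also had 3.52, 3.50 and 3.64 peaks per gene in replicates 1, 2 and 3, against 1.495, 1.503 and 1.511 over all genes. The percentile of a gene is that of its highest peak and rose with the number of peaks. Its median over all genes was 84.8 for exactly 3 peaks in each list and 90.2 for exactly 4. The 63.1 is for genes with 1.60 peaks on average, and no gene list was compared at an equal number of peaks. The BAF subunit genes ARID1B and ARID1A had folds of 55.1, 47.1 and 59.9 and of 41.3, 41.5 and 35.4. CHD7, a remodeller needed in neural crest development, had 34.7, 38.0 and 32.7, and ATRX, which places histones at repeats, 45.7, 29.0 and 33.9.

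Histone methyltransferases had the next highest median. Of 25 genes of this list, 22 had a peak and 19 had one in all 3 lists (86.4%), with a median percentile of 84.8. Above the 90th percentile in each list were 3 of the 19 (15.8%). The methyltransferase genes had 2.81, 2.80 and 3.15 peaks per gene in replicates 1, 2 and 3. Over all genes with exactly 3 peaks in each list the median was 84.8 as well. KMT2B had folds of 22.3, 19.6 and 25.01, SETD1B 18.5, 17.8 and 17.4, KMT2E 15.6, 24.1 and 21.0, and EHMT1, which methylates histone H3 in euchromatin, 13.9, 14.9 and 13.5. The Polycomb genes EZH1, EZH2 and SUZ12 had no peak. Of 16 histone demethylases, 15 had a peak and 12 (80%) had one in all 3 lists, with a median percentile of 60.6, below the 63.1 of all genes. They were led by KDM5A with folds of 38.2, 21.8 and 33.5 and KDM6A with 15.5, 18.6 and 15.3, followed by KDM6B with 14.9, 13.8 and 14.2 and KDM5B with 8.52, 9.08 and 8.54.

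Of 37 factors of mRNA decay, 24 had a peak and 20 (83.3%) had one in all 3 lists, beside 67.8% of all genes. Their median percentile was 78.0, against 63.1 for all genes, while 2 of the 20 (10%) were above the 90th percentile in each list, against 11.4%. These factors had 2.13, 2.05 and 2.18 peaks per gene in replicates 1, 2 and 3. Over all genes with exactly 2 peaks in each list the median percentile was 74.9. After UPF2 came TOB2, an adaptor that recruits deadenylases, with folds of 17.3, 17.4 and 17.3. TNRC6A, which binds Argonaute proteins, had 13.8, 16.9 and 16.8, and the decay helicase gene UPF1 13.7, 17.6 and 15.9.

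**Figure D5:**
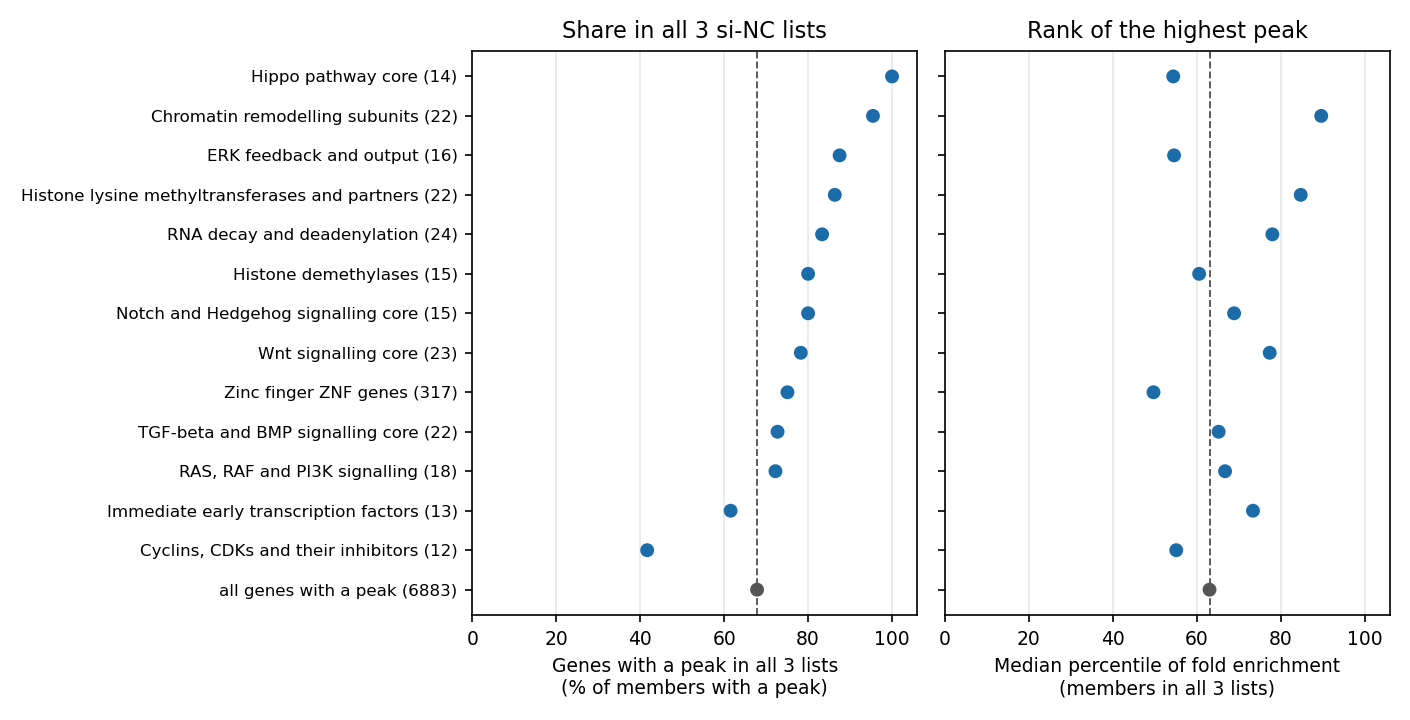
Left, percent of the members with a peak that had one in all 3 si-NC lists, and right, the median within-list percentile of the members found in all 3, for gene lists with at least 10 members with a peak (number in brackets). The dashed lines and the lowest row give all genes with a peak, at 67.8% and 63.1, and chromatin remodelling subunits lie at 95.5% and 89.7.

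For each signalling list, the share of members with a peak that had one in all 3 lists is given. It is to be read beside the 67.8% of all genes, and differences between the lists were not tested. Of 21 Hippo pathway genes 14 had a peak, and each of the 14 was found in every list, but their median percentile of 54.4 was below the 63.1 of all genes. AMOTL1, an angiomotin that binds YAP, had folds of 31.5, 28.6 and 28.9, the kinase gene LATS2 16.7, 20.2 and 17.0, and its paralog LATS1 11.4, 11.7 and 11.1. AMOTL2 had 11.4, 11.8 and 10.8. Of 30 Wnt pathway genes, 23 had a peak and 18 (78.3%) had one in all 3 lists, at a median percentile of 77.4. ZNRF3, a ligase that removes Wnt receptors, had folds of 19.6, 20.5 and 19.8, the coactivator gene BCL9L 18.5, 18.5 and 17.9, the corepressor gene TLE1 15.7, 14.98 and 16.8, and the receptor gene FZD6 14.2, 14.4 and 13.0.

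Notch and Hedgehog genes were listed in all 3 lists in 12 of 15 cases (80%), beside 67.8% of all genes. Their median percentile was 68.9, against 63.1, and 0 of the 12 were above the 90th percentile in each list, against 11.4% of all genes. Peaks per gene were 2.08, 2.13 and 2.29 in replicates 1, 2 and 3. The Notch ligand gene JAG1 had folds of 16.2, 12.1 and 13.0, and the coactivator MAML3 15.5, 10.4 and 11.9. GLI2 had 12.5, 9.96 and 15.3, and the receptor NOTCH1 11.0, 9.03 and 12.3. Of 22 TGF-beta and BMP genes with a peak, 16 (72.7%) were in all 3 lists, close to the 67.8% of all genes. The ligand gene TGFB1 had 17.2, 20.5 and 18.2, and SKIL, an inhibitor of SMAD proteins, 13.3, 12.9 and 14.3. ID4 had 13.7, 10.3 and 14.4, and SKI 9.56, 12.4 and 9.05.

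The RAS and PI3K pathways, which are often mutated in thyroid cancer, were close to the background share. Of 25 members 18 had a peak and 13 of these (72.2%) had one in all 3 lists, with a median percentile of 66.8. HRAS had folds of 23.5, 18.6 and 24.1, while BRAF and NRAS had no peak. RPTOR, the targeting subunit of mTORC1, had 11.7, 12.7 and 13.2. The adaptor gene GRB2 had 10.3, 11.4 and 9.84.

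Among targets and feedback inhibitors of ERK, 14 of 16 genes with a peak (87.5%) were found in every list, at a median percentile of 54.6. PHLDA1 had folds of 27.2, 28.6 and 27.0, IER3 23.9, 23.6 and 23.2, and the ERK phosphatase DUSP4 14.2, 15.01 and 13.5. SPRED2 had 9.25, 9.55 and 9.29. The immediate early genes were found in all 3 lists in 8 of 13 cases (61.5%), close to the 67.8% of all genes. Their median percentile was 73.4, and 4 of the 8 (50%) were above the 90th percentile in each list, against 11.4% of all genes. The AP-1 subunit genes JUND and JUN had 23.4, 23.9 and 20.5 and 18.3, 18.1 and 18.1, the serum response factor gene SRF 17.9, 22.4 and 16.9, and IER2 15.3, 18.4 and 15.8.

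Of 23 members of the JAK-STAT list 9 had a peak and 4 had one in all 3 lists (44.4%), against 67.8% of all genes. These were LIFR, the receptor for leukemia inhibitory factor, with folds of 10.7, 14.1 and 11.7, SOCS5 with 8.86, 8.98 and 7.93, SOCS4 with 7.62, 7.97 and 7.14, and SOCS3 with 6.23, 7.41 and 6.34. STAT2, STAT3, STAT5A, STAT5B, STAT6 and JAK1 had no peak. Of 30 cyclins, CDKs and their regulators 12 had a peak and 5 (41.7%) had one in all 3 lists, namely E2F3 with 16.0, 25.4 and 15.4, CCNF with 10.21, 11.8 and 9.22, E2F8 with 6.07, 8.22 and 8.83, CDKN2C with 5.55, 6.76 and 5.96, and CDKN1B with 7.65, 6.57 and 5.43.

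Most members of the ribosomal protein, housekeeping, oxidative phosphorylation and histone lists had no peak. The share of all human genes with a peak was not computed, so these counts have no background and do not set the lists apart. Counts in all 3 lists are to be read beside the 67.8% of all genes with a peak. Of 84 cytoplasmic ribosomal protein genes 8 (9.52%) had one in any list and 4 in all 3, which were RPL26L1 with folds of 11.1, 9.67 and 8.27, RPL38 with 7.82, 7.63 and 7.36, RPL26 with 11.3, 9.49 and 6.34, and RPS24 with 6.99, 7.24 and 4.96. RPL26 and RPL26L1 are close copies, and ribosomal protein genes have many pseudogenes, so these values are uncertain. Of 20 core housekeeping mRNAs 2 had a peak, FTH1, the ferritin heavy chain gene, with folds of 10.24, 9.65 and 9 and TBP with 5.84, 8.54 and 7.71. Of 58 subunits of oxidative phosphorylation 9 (15.5%) had a peak and 3 had one in all 3 lists, ATP5D with 12.5, 10.1 and 10.6, NDUFC1 with 8.82, 11.6 and 7.31 and NDUFS5 with 8.28, 6.84 and 6.56. Of 71 histone genes 4 had a peak, and only HIST1H1A of these had one in all 3 lists, with folds of 3.87, 4.59 and 3.81.

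Of 21 glycolysis enzymes 7 (33.3%) had a peak, a count that again has no background beside it. Of these 7, 2 (28.6%) had one in all 3 lists, against 67.8% of all genes with a peak. PFKFB3, which makes an activator of phosphofructokinase, had folds of 7.95, 7.54 and 7.39. GPI had 5.37, 3.45 and 3.97, at percentiles of 25.1, 2.49 and 6.81. HK2 was listed in replicates 2 and 3, with 5.18 and 5.63, and GAPDH, LDHA, PKM and PGK1 had no peak.

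The labelled cell type could be checked only in part from peaks. Of 16 thyroid follicular genes 3 had a peak. FOXE1, a transcription factor of the thyroid lineage, had one of 3461 bp at chr9:100615537-100618997 in all 3 lists, with folds of 9.97, 9.18 and 8.77. HHEX was listed in replicate 1 and DUOXA1 in replicate 3 alone, while TG, TSHR, PAX8 and NKX2-1 had no peak. Of 9 epithelial markers KRT8 had a peak, with folds of 6.51, 6.61 and 6.19. Of 22 markers of fibroblasts, endothelium and leukocytes 4 had a peak, COL1A1 with 9.90, 16.0 and 12.3, KDR with 5.67, 4.57 and 4.8, CD14 with 9.20, 9.51 and 7.02, and THY1 in replicate 3 alone.

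The lists also carry GO and pathway annotation, whose terms hold other genes than the gene lists above. For Hippo signaling the pathway column gave 77.1% in all 3 lists and a median percentile of 65.7, against 100% and 54.4 in the gene list. A pathway was named for 2144 of the 6883 genes, of which 64.7% were in all 3 lists, against 69.3% of the genes without one. The pathways with most genes in all 3 lists were Endocytosis with 85 of 115 genes, led by PARD3, VPS37B and USP8, MAPK signaling and Pathways in cancer with 78 of 108 each, PI3K-Akt signaling with 61 of 100 and Rap1 signaling with 59 of 89. MAP4K4, TAOK3 and CACNA1A led the MAPK genes, and HSP90AA1 and CREBBP were among the highest of Pathways in cancer. Genes can stand in many terms, so terms are not independent of each other.

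Among the 102 pathways with at least 20 genes with a peak, the share in all 3 lists ran from 38.1% to 90%, with a median of 66.7%. The 5 highest were Estrogen signaling with 90%, Notch signaling and NOD-like receptor signaling with 83.3% each, and TGF-beta and GnRH signaling with 81.1% and 81.0%. HSP90AA1, FKBP5 and JUN led the estrogen genes. The 5 lowest were Glycerolipid metabolism with 38.1%, led by LPIN2, Pyrimidine metabolism with 38.5%, p53 signaling with 39.1%, Glycerophospholipid metabolism with 41.9% and Lysosome with 46.9%. Members of the p53 pathway found in all 3 lists numbered 9 of 23, and GADD45A and PMAIP1 ranked highest.

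By molecular function, most of the 5 highest shares belonged to terms for transcription, several of them with few genes, such as 24 of 26. Over terms with at least 20 genes the median share was 71.3%, beside 67.8% of all genes with a peak. The 5 highest shares of terms with at least 20 genes were 92.3% for transcriptional repressors that bind RNA polymerase II regulatory regions, 91.3% for protein complex scaffolds, 90% for binding to activating transcription factors, 88.1% for transcription corepressors and 87.9% for sequence-specific RNA polymerase II factors. The corepressors counted 104 of 118 genes, with ZEB1 and CCAR1 in front. The 5 lowest were flavin adenine dinucleotide binding with 28.6%, kinase activity with 46.9%, electron carriers with 47.6%, oxidoreductases with 47.9% and iron ion binding with 48.3%. Other kinase terms were higher, with 66.9% for protein kinase activity and 70.9% for protein serine/threonine kinase activity.

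By biological process, the median share over terms with at least 20 genes was 69.7%, beside 67.8% of all genes with a peak. The share was 92.3% for double-strand break repair by nonhomologous end joining, where LIG1, PAXIP1 and LIG3 ranked first. It was 90.9% for ephrin receptor signaling, 90.5% for negative regulation of neuron apoptosis, 87.0% for neuron differentiation and 86.4% for canonical Wnt signaling. The 5 lowest were lipid catabolism with 30.4%, response to lipopolysaccharide with 33.3%, xenobiotic metabolism with 39.1%, positive regulation of signal transduction with 40.9% and cell-matrix adhesion with 42.9%. PLCL2, PLCB3 and PLA2G12A were the lipid catabolism genes of highest rank.

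By compartment, the median share over terms with at least 20 genes was 68.6%, beside 67.8% of all genes with a peak. The cis-Golgi network had 95%, or 19 of 20 genes, among them GOLIM4 and PCNT. The transcriptional repressor complex followed with 85.7%, and the histone deacetylase complex, the Z disc and the leading edge had 85.0% each. The lowest were the cytoplasmic face of the plasma membrane with 42.9%, the perikaryon with 45.0%, the mitochondrial intermembrane space with 45.8%, the peroxisome with 46.9% and the integral membrane proteins of the endoplasmic reticulum with 50%. Of the largest terms, the nucleus had 72.6% of 2426 genes in all 3 lists, the cytoplasm 69.5% of 2139 and integral membrane components 62.2% of 1140. The smaller term mitochondrion, picked after its value was seen, had 60.4% of 447.

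Some terms for RNA binding and RNA processing are given here for their strong peaks. They were picked after their values were seen, and other terms had higher shares, such as RNA polymerase II transcription coactivators with 8 of 19 genes (42.1%). Of 472 genes for poly(A) RNA binding found in all 3 lists, 107 were above the 90th percentile in each list (22.7%), against 11.4% of all genes in all 3. Of 95 nuclear speck genes it was 28 (29.5%), with RBM25, LUC7L3 and ZC3H13 in front, and of 47 histone binding genes 14 (29.8%). For the Spliceosome pathway it was 11 of 47 (23.4%), led by HNRNPM, RBM25 and PRPF38B.

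The chromosomes differed little in how regularly their genes had a peak across the lists. Chromosomes 1 to 22 and X are described, and genes in the region shared by both sex chromosomes are listed on each and were not separated. The share of genes in all 3 lists ran from 63.7% on chromosome 14 to 75.8% on chromosome 10, with 95% Wilson intervals of 57.3% to 69.7% and 70.5% to 80.4% that cover counting error only. Chromosome 10 was the single chromosome whose interval lay above the 67.8% of all genes, and no correction was made for looking at all of them.

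Chromosome 1 held the most peaks, 10.1 ± 0.054% of a list (SD, n = 3), and chromosome 19 the next, 7.25 ± 0.11%. Genes had the most peaks on chromosome 15, with 1.65 ± 0.032 per gene, and the fewest on chromosomes 22 and 19, with 1.39 ± 0.032 and 1.41 ± 0.014. Peaks were longest on chromosome 18, with a median of 813 ± 26.2 bp, and shortest on chromosome 12, with 569 ± 22.2 bp. The median percentile over all peaks of a chromosome was highest on chromosome 16, at 56.5 ± 1.84. It was lowest on chromosomes 18 and 2, at 44.7 ± 3.32 and 44.8 ± 2.17. These medians are not of the highest peak of each gene and are not to be set against the 63.1 given above.

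Chromosome 19 holds many ZNF genes, and its median peak length over all genes, 724 ± 31.8 bp (SD, n = 3), lay within the range of the other chromosomes. Its 130 ZNF genes with a peak had a median length of 2109, 2092 and 2119 bp in replicates 1, 2 and 3. Their median percentile, taken over all their peaks, was 34.2, 39.4 and 49.3. The 403 other genes of the chromosome had 577, 533 and 548 bp and, by the same measure, percentiles of 54.0, 55.5 and 53.5. On the other chromosomes the ZNF genes had 1609, 1614 and 1569 bp, against 676, 659 and 646 bp for the remaining genes. ZNF genes on chromosome 19 were in all 3 lists in 68.5% of cases, against 79.7% of ZNF genes elsewhere.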

How the data were processed

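Each m6A IP was set against its input by the authors, whose peak lists place every peak on hg19 (GRCh37) and name its transcript and gene. CASAVA 1.8 and BWA stand in the submitters' processing notes, and MACS stands in the peak identifiers, with its settings unknown. The deposited score is the negative log10 of a p-value, multiplied by 10. The deposited fold enrichment is a ratio of IP to input, and the deposited FDR is a percent. Each list had 1 emptied line that was not analysed here.

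The si-NC lists were taken by name, and replicate numbers come from the sample titles, since the siRNA label is the same for all si-NC samples. The fold was turned into a percentile within its list, with ties averaged. A common stretch was covered by a peak in all 3 lists, with at least 1 bp. Positions are counted from 1. No group was compared with another, so no test was made, and values are given per list. Members of 28 gene lists were matched by symbol, synonym or gene ID to RefSeq names. Python 3.11.15, pandas 2.3.3, numpy 2.4.6, scipy 1.17.1 and matplotlib 3.10.9 were used, and the counting steps were tested on simulated data.

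The members and gene lists were chosen with earlier results of these data known. Named genes are the 20 whose lowest percentile over the lists was highest, the 10 with the highest lowest number of peaks, those of the 5 longest common stretches, up to 4 members of each gene list by the same order or all members of counts up to 5, the writers, erasers and readers, and for the annotation terms with most genes, and with the 5 highest and 5 lowest shares, up to 3 genes each. Genes named otherwise, among them the members named for having no peak, HK2, ACTB and ACTG1, were chosen after their values were seen. Some genes that meet the rule are not reported here. Alternatives were a score of at least 100 (p-value of 1e-10), the upper 75 percent of fold, RefSeq mRNA transcripts, lists of equal length, 2 of 3 lists, stretches of at least 200 bp, peaks within 1000 bp counted as 1, and leaving out each list. Sequences and distances to stop codons were not analysed here.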

Additional observations from a re-analysis of the deposited data

How the results depend on the processing

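The counts of genes and of common stretches stayed within 1.5 times of those given under every alternative run. Genes in all lists numbered 3618 in the upper 75 percent of fold enrichment, 4000 at a score of at least 100, 4024 for RefSeq mRNA transcripts, 4609 for lists of equal length and 5668 for at least 2 lists, and 4937 to 5080.0 with a list left out. Stretches numbered 4616, 5284, 6408 at 200 bp or more and 8420.0 in at least 2 lists, and 6972 to 7240.0 with a list left out. Genes above the 90th percentile in all remaining lists numbered 589 to 624, an alternative added after the data were seen.

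Mean peaks per gene moved by more than the spread between lists, to 1.40 in the upper 75 percent of fold enrichment, 1.43 at a score of at least 100, 1.48 when peaks within 1000 bp counted as 1 and 1.60 over genes in all 3 lists. Median peak length rose to 706 bp in the upper 75 percent and 736 bp at a score of at least 100. Mean rho between lists was 0.86 when ranked by score and 0.75 by the median fold of a gene. With each list left out, peaks per gene ran from 1.499 to 1.507 and median length from 672 to 685 bp. Leaving out a list leaves 1 pair, so rho then repeats the values of the pairs, 0.81 to 0.85, and adds no check. At a score of at least 100, the shares of all 23 chromosomes and 13 gene lists stayed within their 95% Wilson intervals. These intervals are wide for gene lists with few members. Within them, Hippo fell from 100% to 78.6% and histone demethylases from 80% to 60%, beside 66.8% of all genes. The share rose in 2 of the 13 gene lists. With at least 2 of 3 lists, the share of all genes was 82.3%, and 3 of 13 gene lists moved outside their intervals, to 88.6% for ZNF genes and 100% each for chromatin remodelling and for Notch and Hedgehog. No paired analysis was possible because no groups were compared.

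The depth is unknown, no peak has an FDR under 5%, and an absent peak means only that none was listed.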
